A study of Homo sapiens with 42 samples.

Results

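OGT and OGA are the 2 genes of O-GlcNAc cycling, and their transcripts are described here by the adenosine changes that a tethered deaminase left on them. They were chosen by gene name from 7 bulk tables of modified sites, together with the pattern of their rates in those same tables, so the rates below are a description and carry no test. The 7 tables name 11984 genes and hold 4045882 site entries, of which 2094 belong to OGT and 1452 to OGA. Those entries fall on 834 distinct positions of OGT and 534 of OGA. On GRCh38, RefSeq places OGT on the plus strand of chromosome X from 71533104 to 71575892 and OGA on the minus strand of chromosome 10 from 101784450 to 101818444.

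The study expressed TadA-8e, an adenosine deaminase, from plasmids introduced transiently into 2 established human cell lines labelled wild type. HEK293T is an embryonic kidney line that carries the SV40 large T antigen, and its plasmids were delivered by lipofection. K562 is an erythroleukaemia line from bone marrow, and its plasmids were delivered by electroporation. A nuclear export signal (NES) kept the enzyme in the cytoplasm, a nuclear localisation signal (NLS) in the nucleus, and an ER membrane anchor (ERM) on the endoplasmic reticulum. Inosine made by the enzyme is read as G, and the rate of a site is the percentage of its reads that carry the change. GFP-positive cells were sorted in all groups, and control cells received a GFP plasmid without the enzyme. Poly(A) libraries cover NES, NLS and ERM in HEK293T and NES and NLS in K562. Ribosomal-RNA-depleted libraries cover NES and NLS in HEK293T. Each group has 2 libraries, 14 with enzyme in all. The labels do not say that the 2 were separate cultures, so the spread between them may be technical. Of 8 genes of the erythroid lineage, 8 had sites in the K562 tables and 0 in the HEK293T tables. Of 3 neurofilament genes taken as markers of HEK293T, NEFM and NEFL had sites in HEK293T only, while NEFH had none there and 8 in the NES table of K562.

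OGT is the enzyme that attaches single N-acetylglucosamine sugars to serines and threonines of nuclear and cytosolic proteins, and OGA is the enzyme that removes them. The sugar donor, UDP-GlcNAc, comes from the hexosamine pathway. Both transcripts are known to carry detained introns, so that part of the polyadenylated RNA of each gene waits incompletely spliced in the nucleus. The modification rate at a site depends on how long the RNA meets the enzyme and on how accessible the adenosine is, and these cannot be told apart here.

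The first transcribed bases of OGT show what a called site is. In the 30 bases at chrX:71533113-71533142 on the plus strand, taken from RefSeq's GRCh38.p14 sequence, 4 of the 8 adenosines were called in at least 1 bulk table, and these 4 are in capitals.
OGT start: ccgtactAggtAgatggtcAattAgagttc
The first capital, at 71533120, read 11.0% and 10.5% in the NES libraries of HEK293T, 17.2% and 18.3% in the NLS libraries of HEK293T, and 22.4% and 23.3% in the NLS libraries of K562. The second, at 71533124, read 5.66% and 5.08% with NES in HEK293T and 5.50% and 7.84% with NLS in K562. The third, at 71533132, was called with NLS only, at 4.44% and 7.17% in HEK293T and 2.96% and 4.18% in K562. The last, at 71533136, was also called with NLS only, at 20.9% and 17.9% in HEK293T, 9.05% and 9.13% in K562, and 16.8% and 15.1% in the rRNA-depleted libraries. Of these 4 adenosines, 3 follow a T and 1 follows a C. Another called site within the first 50 bases of OGT, at 71533153 and past the stretch shown, follows a G. Over the first 50 bases of all genes in the RefSeq table, 3438 sites in 1668 genes were called, every one on a reference adenosine, and 36.7% of them follow a T, against 13.1% of the 13974 adenosines in those windows. No site was called in the matching window of OGA.

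In poly(A) RNA the rates of OGT and OGA were low with the cytoplasmic enzyme and ordinary with the nuclear one. Over all called sites in HEK293T poly(A) RNA, OGT read 4.90% and 4.87% with NES (177 sites, mean 4.88% ± 0.0261, SD, n = 2), 10.7% and 10.8% with NLS (555 sites, 10.7% ± 0.0823), and 3.90% and 4.10% with ERM (37 sites, 4.00% ± 0.136). The 2 libraries of a construct differed far less than the constructs did, and no NLS library overlapped a NES or ERM library. The median gene read 13.5% with NES, 9.90% with NLS and 11.0% with ERM. OGT was therefore above only 1.57% of genes with NES and 2.80% with ERM, but above 55.9% with NLS.

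OGA followed the same order at higher cytoplasmic levels. It read 6.31% and 6.34% with NES (211 sites), 9.28% and 9.47% with NLS (328 sites), and 5.32% and 5.55% with ERM (56 sites). Its place among all genes was above 5.88% of them with NES, 8.44% with ERM and 46.1% with NLS.

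K562 gave the same order for both genes. OGT read 4.62% and 4.69% with NES (184 sites) and 10.2% and 10.3% with NLS (764 sites). OGA read 7.65% and 7.56% with NES (216 sites) and 15.7% and 15.5% with NLS (438 sites). OGT lay above 0.303% of genes with NES and 39.2% with NLS, and OGA above 4.63% and 69.4%.

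In rRNA-depleted RNA from HEK293T, OGT read 7.95% and 9.89% with NES (66 sites) and 17.1% and 18.3% with NLS (311 sites). OGA read 14.6% and 16.2% with NES (77 sites) and 21.8% and 23.1% with NLS (126 sites). The median gene read 23.5% with NES and 22.5% with NLS. OGT lay above 3.07% of genes with NES and 26.9% with NLS, and OGA above 15.5% and 49.6%. The 2 NES libraries of this kind stand apart from each other over all genes, with a mean site rate of 17.6% in the first and 21.4% in the second. The NES and NLS libraries still did not overlap for either gene.

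The next comparison used only sites called with both constructs, since constructs differ in which adenosines were called. At the 161 OGT sites shared by NES and NLS in HEK293T poly(A) RNA, the NES libraries read 5.09% and 5.07% and the NLS libraries 11.6% and 12.8%, a mean 2.41-fold higher with NLS. At the 167 shared OGA sites the NES libraries read 6.72% and 6.80% and the NLS libraries 11.3% and 11.2%, 1.66-fold higher with NLS. The median gene moved the other way, 0.66 higher with NES on the log2 scale. Relative to it, OGT was at -1.92 ± 0.06 (SE) and OGA at -1.39 ± 0.05, which are the 18th and 93rd lowest of 6739 genes. As deposited, without that centring, the differences were -1.26 and -0.73.

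In K562 the distance was wider. At 170 shared OGT sites the NES libraries read 4.75% and 4.86% and the NLS libraries 14.1% and 13.5%, 2.87-fold higher with NLS. At 182 shared OGA sites they read 8.08% and 7.97% against 15.8% and 15.8%, 1.97-fold higher. Relative to the median gene, which was 0.72 higher with NES, OGT was at -2.24 ± 0.03 and OGA at -1.69 ± 0.03, the 11th and 29th lowest of 6523 genes. The deposited differences were -1.52 and -0.97.

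In rRNA-depleted RNA, 60 shared OGT sites read 8.18% and 10.0% with NES against 22.8% and 23.6% with NLS, 2.54-fold higher. The 50 shared OGA sites read 14.9% and 17.2% against 22.2% and 23.7%, 1.43-fold higher. OGT was at -1.38 ± 0.23 relative to the median gene and was the 17th lowest of 5357 genes, while OGA was at -0.54 ± 0.23 and was the 422nd lowest. The errors here are several times those of the poly(A) comparisons.

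The ER membrane enzyme left both transcripts at the lowest rates of the 3 constructs. The HEK293T comparisons share libraries, so they are given side by side and are not independent. At 31 OGT sites called with all 3 constructs the mean rate was 3.89% with ERM, 7.09% with NES and 18.9% ± 1.46 (SD, n = 2) with NLS. At 53 such OGA sites it was 5.53% with ERM, 10.4% with NES and 15.2% with NLS. Against NLS, OGT at 36 shared sites read 3.96% and 4.14% with ERM and 19.9% and 20.2% with NLS, 4.95-fold apart, and was the 3rd lowest of 5826 genes at -2.44 ± 0.08. OGA at 53 shared sites read 5.41% and 5.65% against 15.1% and 15.3%, 2.75-fold apart, and was the 44th lowest at -1.59 ± 0.07.

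Against NES, neither transcript stood out. OGT at 32 shared sites read 3.76% and 3.90% with ERM and 6.89% and 7.07% with NES, and OGA at 56 shared sites read 5.32% and 5.55% against 10.4% and 10.2%. The median gene was itself 0.66 lower with ERM on the log2 scale. Relative to it OGT was at -0.20 ± 0.08 and OGA at -0.26 ± 0.06, ranks 1534 and 1133 from the lowest of 6884 genes. The value of OGT in this pair became 0.0022 when the median of site rates replaced the mean.

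Most single sites of both genes showed the order of the gene means, apart from those of OGA in rRNA-depleted RNA. In HEK293T, 132 of 161 shared OGT sites and 108 of 167 shared OGA sites had both NES libraries below both NLS libraries, beside 13.9% of all shared sites in the table. Only 4 OGT sites and 10 OGA sites had both NES libraries above both NLS libraries, beside 56.4% of all shared sites. In K562 the counts were 149 of 170 for OGT and 135 of 182 for OGA, beside 14.9% of all shared sites, with 3 and 13 sites in the reverse order, beside 59.3%. In rRNA-depleted RNA they were 50 of 60 and 24 of 50, beside 29.1%, with 2 and 0 reversed, beside 25.7%. With ERM below NLS they were 36 of 36 and 47 of 53, beside 34.6%, with 0 and 1 reversed, beside 30%. With ERM below NES they were 22 of 32 and 43 of 56, beside 75.9%, with 0 and 0 reversed, beside 1.99%, so both genes were close to the table there. Sites of 1 gene share molecules and are not replicates.

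The nuclear enzyme also marked many positions of these transcripts that the cytoplasmic enzyme did not. In HEK293T poly(A) RNA, 394 of the 555 NLS sites of OGT (71.0%) were not called with NES, and these read 10.3% and 9.96%. In K562 the number was 594 of 764 (77.7%), at 9.10% and 9.37%, and in rRNA-depleted RNA it was 251 of 311 (80.7%), at 15.7% and 17.1%. Over all genes, NES lacked 22.9% of the NLS sites of HEK293T poly(A) RNA, 24.4% of those of K562 and 40.9% of those of rRNA-depleted RNA. The reverse class was small: 16 OGT sites in HEK293T (9.04% of its NES sites) were called with NES and not with NLS, and they read 2.97% and 2.86%, beside 51.2% of the NES sites of all genes.

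OGA had a smaller share of such sites. Of its NLS sites, 161 in HEK293T (49.1%), 256 in K562 (58.4%) and 76 in rRNA-depleted RNA (60.3%) were not called with NES. Its NES sites not called with NLS numbered 44 in HEK293T (20.9%), at 4.77% and 4.59%, then 34 in K562 (15.7%) and 27 in rRNA-depleted RNA (35.1%), beside 51.2%, 55.2% and 41.7% over all genes. All 56 ERM sites of OGA were also NES sites, and 5 of the 37 ERM sites of OGT were not, beside 4.05% of the ERM sites of all genes. The tables give no read counts, so the depth at a site is unknown and an absent site is not a rate of 0.

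Both genes had more NLS sites for each NES site than the median gene. OGT had 3.14 NLS sites for each NES site in HEK293T and OGA 1.55, where the median of 7684 genes had 0.538. The ratios were 4.15 and 2.03 in K562, with a median gene at 0.494, and 4.71 and 1.64 in rRNA-depleted RNA, with a median gene at 0.873. By this ratio OGT lay above 98.5%, 99.1% and 97.6% of genes, in that order, and OGA above 95.2%, 97.3% and 84.4%. OGT ranked 9th of 8629 genes by number of NLS sites in K562 and 46th of 9241 in HEK293T, but 1593rd of 9566 and 1544th of 10166 by number of NES sites.

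Along OGT, the sites fell into 15 clusters when any gap of more than 300 bases was taken as a boundary, and these are numbered from the 5′ end. No exon annotation was used here, so clusters are given by position and not as exons or introns. Cluster 5 runs from 71544574 to 71548013, which is 11471 to 14910 bases into the gene, and holds 258 positions in 3440 bases. It was singled out after its values were seen. It held 135 NLS sites in HEK293T (24.3% of the OGT sites in that table), 247 in K562 (32.3%) and 84 in rRNA-depleted RNA (27.0%). In contrast, NES gave 4 sites there in HEK293T, 5 in K562 and 1 in rRNA-depleted RNA, and ERM gave 5.

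In poly(A) RNA the rates in cluster 5 were also higher with NLS, though by less than the numbers of sites. NLS sites there read 16.4% and 13.7% in HEK293T, 13.0% and 13.5% in K562, and 16.1% and 19.5% in rRNA-depleted RNA. The few NES sites read 5.82% and 5.16% in HEK293T and 5.15% and 4.90% in K562, and the 5 ERM sites read 4.82% and 5.33%. The 1 NES site in rRNA-depleted RNA read 13.0% and 18.1%, which overlaps the NLS libraries. Those 5 are the only ERM sites of OGT that NES lacked.

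Cluster 15, at the 3′ end from 71573629 to 71575838, was the other large group of sites. There NES called many sites too, but NLS called more. NLS gave 227 sites in HEK293T at 8.93% and 10.3%, and 269 in K562 at 10.1% and 9.70%. NES gave 55 in HEK293T at 4.73% and 4.75%, and 76 in K562 at 4.75% and 4.89%. Sites called with both numbered 54 in HEK293T and 71 in K562, so most NLS sites of this cluster were not called with NES either. Cluster 4 was a small one, with 2 sites at 71541000 to 71541062 called only with NLS in rRNA-depleted RNA, at 64.3% and 44.6%.

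The difference between NES and NLS was seen along the whole of OGT. All 11 clusters with at least 5 shared sites in HEK293T were lower with NES, by log2 values from -1.71 to -0.69 with a median of -1.16. All 10 in K562, cluster 5 among them, were lower, from -2.22 to -0.86. Cluster 5 supplied only 3 of the 161 shared sites in HEK293T and 5 of the 170 in K562, so the shared-site differences above hold little of it. The OGT mean over all NLS sites fell from 10.7% to 9.35% in HEK293T and from 10.2% to 8.80% in K562 when the cluster was left out, while the NES means were 4.87% and 4.65% without it.

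**Figure D1:**
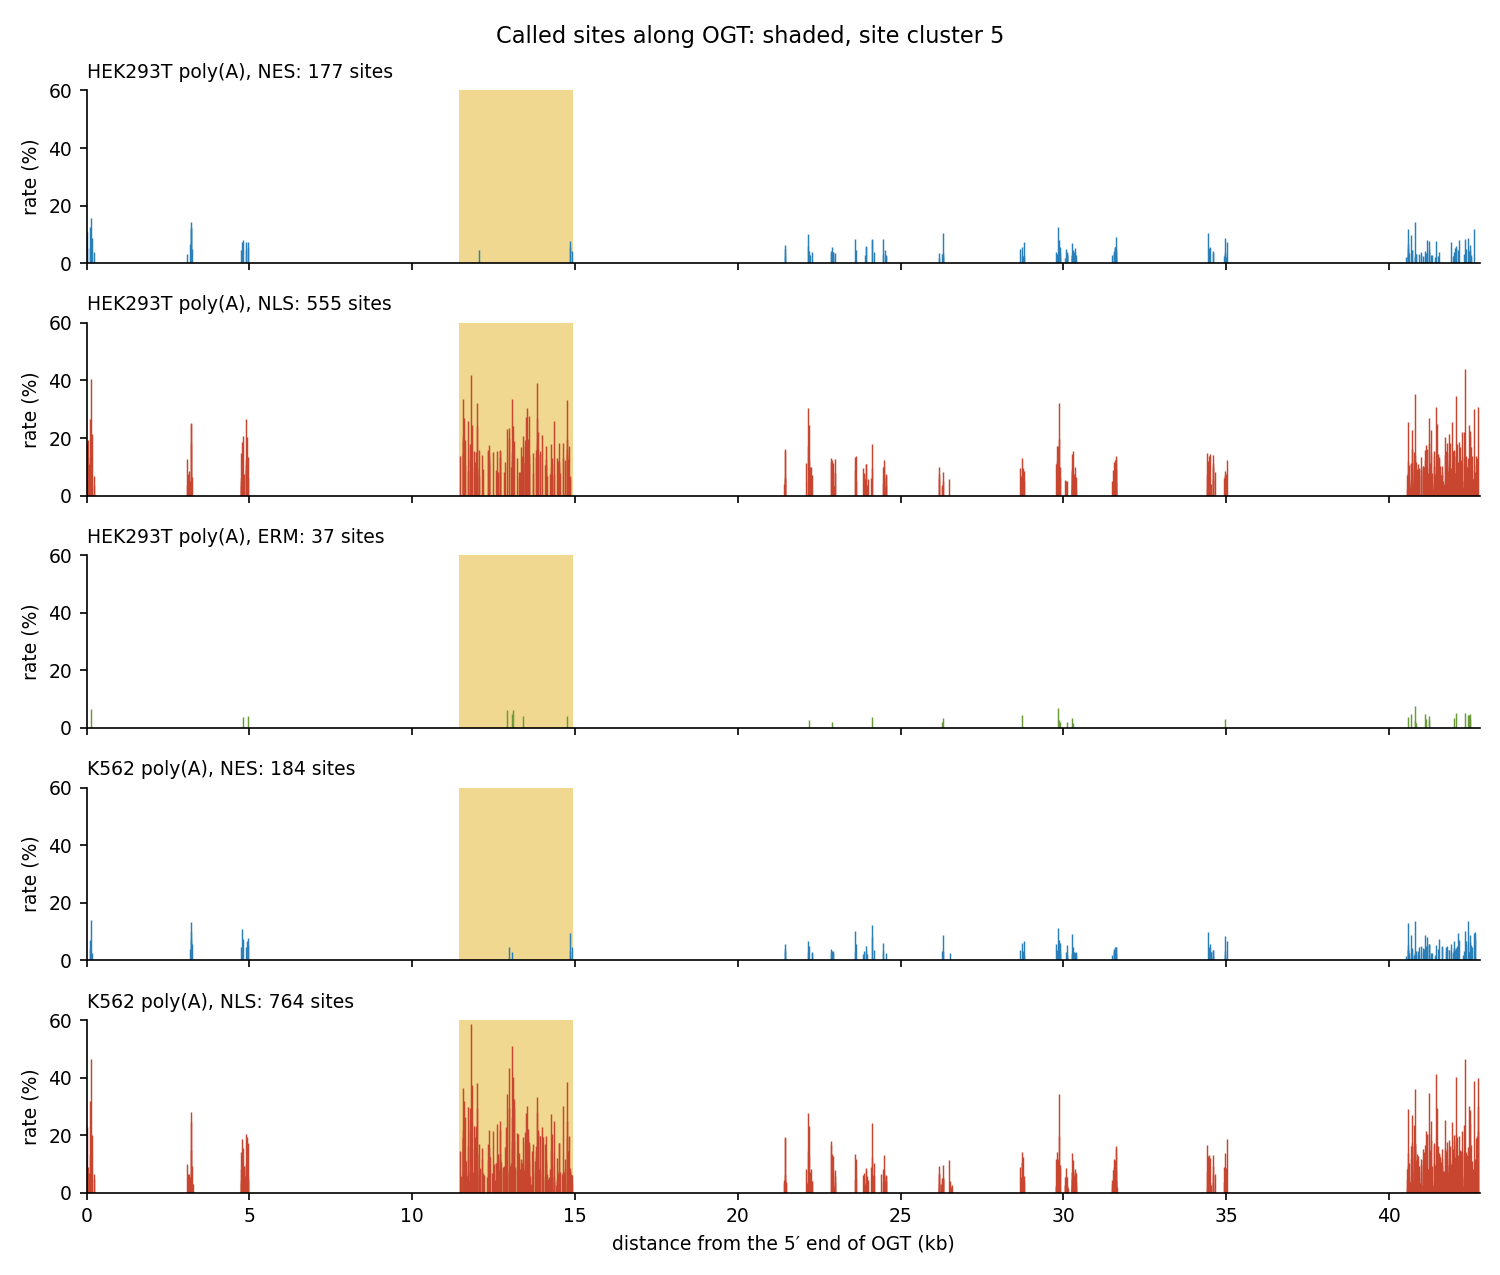
Modification rate (percent, mean of 2 libraries) of each called OGT site against its distance in bases from the gene's start, in 1 panel per poly(A) group, with cluster 5 shaded. In cluster 5, 11471 to 14910 bases from the start, the NLS panel of K562 holds 247 sites and the NES panel 5.

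OGA had 18 clusters by the same rule, and a stretch called mainly with NLS in K562 differed between the lines. Cluster 13, from 101793560 to 101796435 (22010 to 24885 bases into the gene), held 62 NLS sites in K562 at 27.3% and 24.2% but 7 in HEK293T at 18.3% and 27.7%. NES gave 4 sites there in K562, at 4.70% and 4.56%, and 3 in HEK293T, and ERM gave 0. Cluster 12, from 101796893 to 101798137, held 23 NLS sites in K562 at 23.2% and 23.2% and 7 in HEK293T. NES gave 6 sites there in K562, at 10.3% and 9.34%, and 7 in HEK293T, as many as NLS. Both clusters were singled out after their values were seen, as those with many more NLS sites in K562 than in HEK293T. That contrast is therefore a description of the choice. Without them the K562 NLS mean of OGA over all sites was 13.3% in place of 15.6%. They supplied only 7 of the 182 shared OGA sites in K562.

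Outside clusters 12 and 13 the balance of the constructs varied. In K562, cluster 14 held 10 NLS and 3 NES sites and cluster 17 held 17 and 8. By contrast, cluster 6 held 11 and 11 there and cluster 10 held 14 and 15. Cluster 18, at the 3′ end from 101784502 to 101786549, held 176 NLS and 85 NES sites in HEK293T and 193 NLS and 93 NES sites in K562, with NLS rates of 8.34% and 8.66% in HEK293T and 12.0% and 11.8% in K562. Cluster 5, from 101812224 to 101812450, held 8 sites called only with NLS in rRNA-depleted RNA, at 21.4% and 36.4%. Of the 8 OGA clusters with at least 5 shared sites in HEK293T, 6 were lower with NES, and of the 8 in K562, 7 were lower. The exceptions were cluster 6, at 8.75% with NES and 7.59% with NLS in HEK293T and 11.1% and 10.9% in K562, and cluster 10 in HEK293T, at 9.09% and 8.84%.

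**Figure D2:**
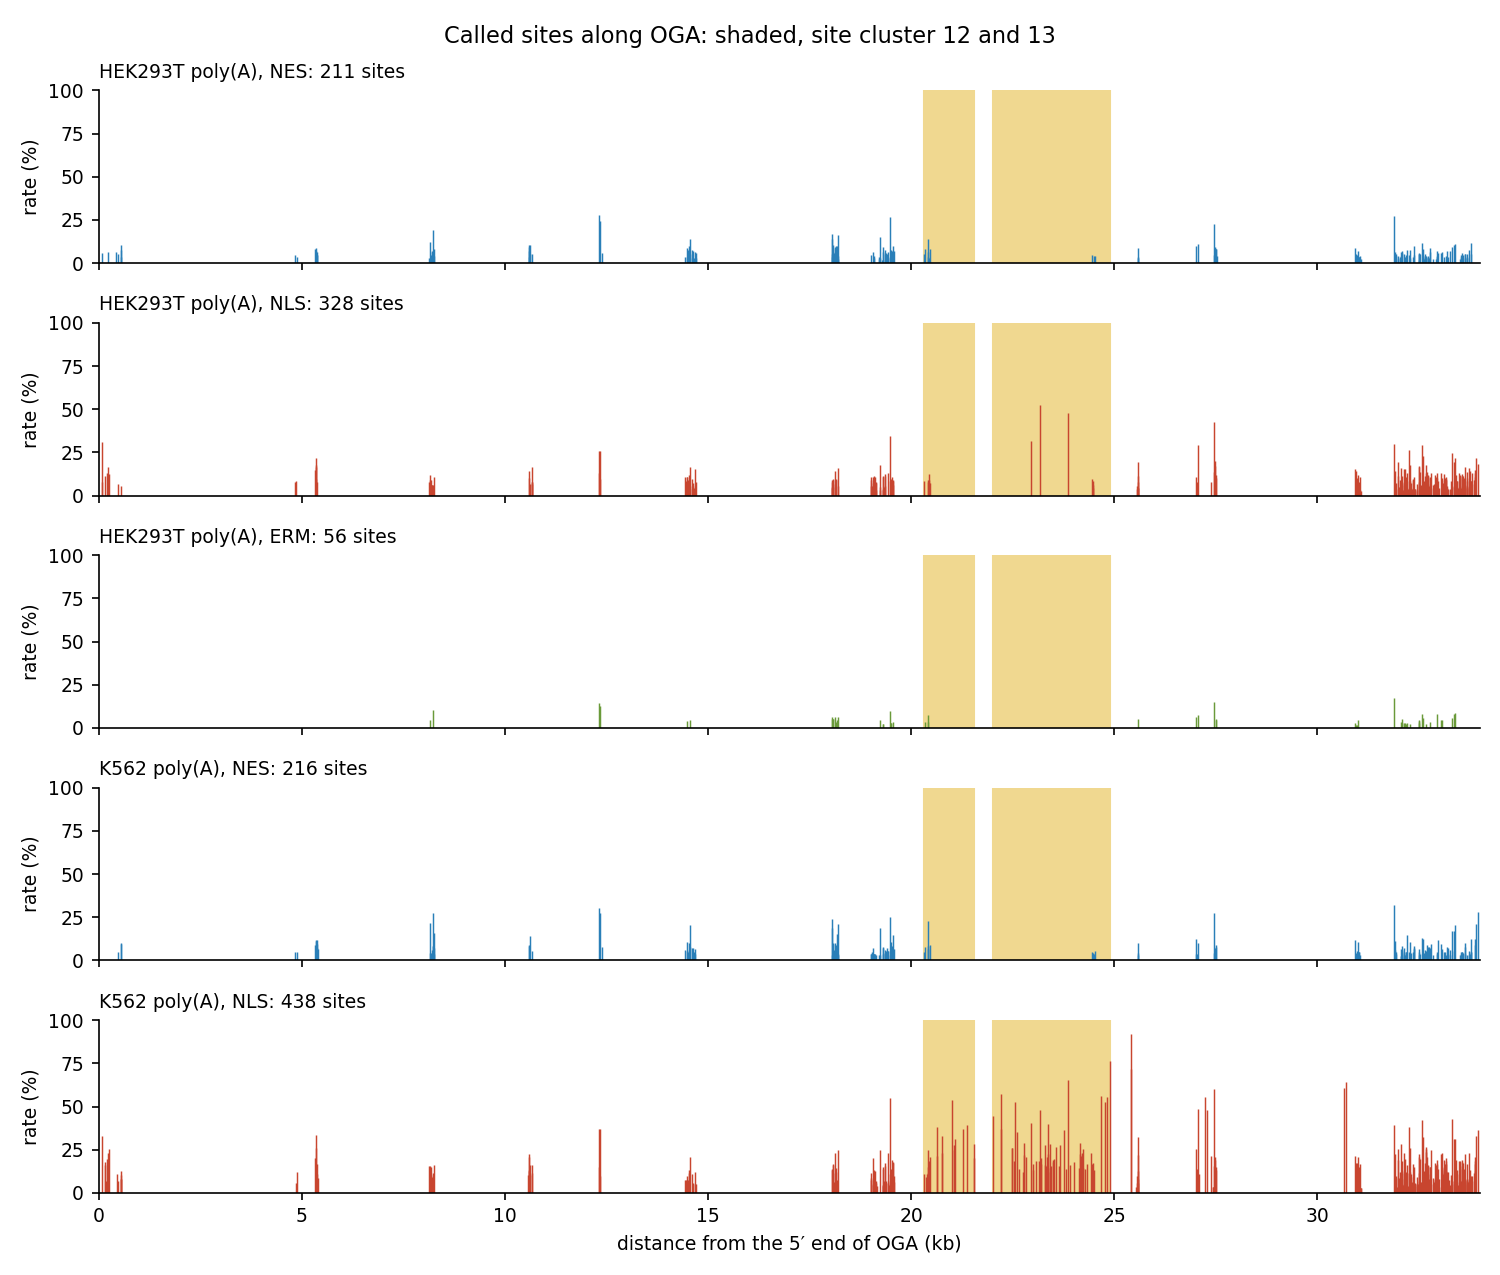
Modification rate (percent, mean of 2 libraries) of each called OGA site against its distance in bases from the gene's start, in 1 panel per poly(A) group, with clusters 12 and 13 shaded. The stretch from 22010 to 24885 bases holds 62 sites with NLS in K562 and 7 with NLS in HEK293T.

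Single sites show the range within a transcript. The OGT site at 71575450, in the 3′ cluster, read 8.76% and 8.04% with NES, 38.6% and 49.6% with NLS and 4.37% and 6.06% with ERM in HEK293T, then 11.6% and 8.87% with NES and 54.7% and 38.3% with NLS in K562. The site at 71544915 in cluster 5 was called with NLS in all 3 kinds of library, at 53.1% and 31.0% in HEK293T, 51.4% and 65.8% in K562, and 35.9% and 31.3% in rRNA-depleted RNA, and with neither NES nor ERM. Another site of that cluster, at 71546159, read 50.3% and 52.0% with NLS in K562 and 2.51% and 3.52% with NES, and in HEK293T 38.3% and 28.6% with NLS and 4.65% and 5.29% with ERM. At 71575450 and 71546159 the NLS libraries stood far above the NES and ERM libraries given, without overlap. At 71544915 there was no other rate to set them against.

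A few sites did not follow the gene. Only 14 OGT positions and 30 OGA positions were called in all 7 tables. One of them, the OGT site at 71562924, read 10.8% and 14.2% with NES and 17.1% and 17.1% with NLS in HEK293T, but 12.3% and 10.6% against 13.6% and 9.62% in K562, where the libraries overlapped. In rRNA-depleted RNA it read 17.8% and 24.2% with NES and 11.1% and 14.0% with NLS, the reverse order.

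OGA held the highest and the most reversed sites. Its site at 101793030 was called only with NLS in K562, at 88.9% and 95.2%. The site at 101790998, called in all 7 tables, read 19.8% and 25.0% with NES, 43.6% and 41.8% with NLS and 15.0% and 15.2% with ERM in HEK293T. The site at 101786549, also called in all 7, read 28.2% and 26.0% with NES and 28.1% and 31.6% with NLS, which overlap. The site at 101810211 ran the other way, at 17.7% and 20.5% with NES, 11.2% and 9.59% with ERM and 7.92% and 4.86% with NLS in HEK293T. In K562 it read 26.3% and 28.9% with NES and 7.76% and 15.4% with NLS.

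The lines were then set side by side over sites called in both. With NLS, 287 OGA sites read 14.5% and 14.6% in K562 and 9.93% and 10.2% in HEK293T, a log2 difference of 0.53 beside 0.23 for the median gene. The 523 OGT sites read 12.2% and 12.3% against 11.0% and 11.2%, a difference of 0.15. With NES, 165 OGA sites read 8.36% and 8.08% against 7.00% and 7.04%, a difference of 0.23, and 130 OGT sites read 5.14% and 5.24% against 5.53% and 5.53%, a difference of -0.09, beside 0.35 for the median gene. OGT lay below the difference of the median gene with both constructs. Line and method of plasmid delivery cannot be told apart.

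The NES against NLS difference itself was larger in K562. Over 123 OGT sites called in all 4 poly(A) tables, NES read 5.65% and 5.67% in HEK293T and 5.25% and 5.39% in K562, and NLS read 12.9% and 14.2% against 14.8% and 14.5%. Over 134 OGA sites, NES read 7.33% and 7.47% against 8.74% and 8.38%, and NLS 11.8% and 11.8% against 17.2% and 17.2%. The difference of the differences, K562 minus HEK293T, was -0.33 ± 0.07 (SE) for OGT and -0.47 ± 0.06 for OGA relative to the median of 5184 genes, and -0.21 and -0.34 as deposited.

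Both genes read higher in rRNA-depleted than in poly(A) RNA at common sites, as did the median gene. With NLS, 255 OGT sites read 18.6% and 19.9% in rRNA-depleted RNA and 13.1% and 13.3% in poly(A) RNA, a log2 difference of 0.54, and the 102 common OGA sites differed by 0.64. Both lay under the 1.13 of the median gene. With NES, the differences were 0.46 for OGT at 55 sites and 0.79 for OGA at 68 sites, beside 0.53 for the median gene.

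The genes whose rates over the 7 tables were most like those of OGT were ATP6V1G2-DDX39B, EIF4A2, EWSR1, SNHG1 and HNRNPH1. Likeness was the Euclidean distance between log2 mean rates centred on each table's median gene, over 4692 genes with at least 5 sites in every table. The distances ran from 0.436 for ATP6V1G2-DDX39B to 0.747 for HNRNPH1. EIF4A2, a helicase of translation initiation, read 5.37% with NES and 9.43% with NLS in HEK293T and 5.11% and 9.40% in K562, at a distance of 0.486. ATP6V1G2-DDX39B is a read-through gene that overlaps a helicase gene, so its sites may be shared with that gene.

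For OGA the nearest genes were ACIN1, SRRT, RABGGTB, CCNL2 and TACC3, at distances from 0.258 to 0.542. ACIN1, a protein associated with the exon junction complex, read 6.47% with NES and 10.2% with NLS in HEK293T and 8.04% and 13.5% in K562. OGA was 69th nearest to OGT and OGT 449th nearest to OGA, at a distance of 1.40. With Pearson correlation in place of distance, 1 of the 5 names was kept for OGT and 2 of the 5 for OGA.

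The wider pathway was read from 3 gene lists, tested with limma on all genes with Benjamini-Hochberg adjustment. A gene is called when its adjusted p is under 0.05, and higher or lower means with NES against NLS, relative to the median gene. In HEK293T 32.9% of genes were called higher and 31.9% lower, and in K562 37.4% and 37.3%. As deposited, without centring, the shares were 77.8% and 6.11% in HEK293T and 80.2% and 5.89% in K562, so the counts below shift with the scale.

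The genes of the UDP-GlcNAc list, not all of which make or salvage that sugar donor, were split. Of its 11 genes, 5 had enough shared sites in HEK293T, and 2 were called higher and 2 lower (3 and 0 as deposited). GNPDA1, a glucosamine-6-phosphate deaminase, rose by 0.82 ± 0.10 (14.2% with NES, 5.09% with NLS, adjusted p = 4.09e-06), and GNPNAT1, the acetyltransferase of the pathway, by 0.41 ± 0.06 (12.5% and 6.00%, adjusted p = 1.34e-05). GFPT1, the rate-limiting first enzyme, was at -0.63 ± 0.08 (16.1% and 15.9%, adjusted p = 4.69e-06), so its deposited rates were nearly level. PGM3, the mutase, was at -0.73 ± 0.09 (adjusted p = 3.55e-06). UAP1, which makes UDP-GlcNAc itself, was at 0.04 with an adjusted p of 0.656.

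In K562 the same 5 genes were tested, with 3 called higher and 2 lower (4 and 0 as deposited). GNPDA1 was at 0.62 ± 0.08, GNPNAT1 at 0.47 ± 0.08 and UAP1 at 0.27 ± 0.07, while PGM3 was at -0.78 ± 0.07 and GFPT1 at -0.57 ± 0.03. Neither OGT nor OGA lay within the range of these 5 genes, since both were below -1.3 in each line. The median of the list was 0.04 in HEK293T and 0.27 in K562, beside a median of 0 over all genes tested by construction.

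Genes whose proteins work in complexes with OGT were more often lower with NES on the centred scale. In HEK293T 21 of 27 were tested, 4 were called higher and 11 lower, with a list median of -0.26. As deposited the split was 13 higher and 2 lower, beside 77.8% and 6.11% of all genes, so most calls were higher in both. HCFC1, the host cell factor that OGT cleaves, was at -0.80 ± 0.08 (10.5% with NES, 11.6% with NLS, adjusted p = 2.92e-07), BAP1, a histone deubiquitinase, at -0.60 ± 0.08 (adjusted p = 1.05e-05) and PPP1CC, a phosphatase catalytic subunit, at -0.23 ± 0.04 (adjusted p = 0.000198). PPP1CB, PPP1R12A and the deacetylase HDAC1 were at -0.02, -0.12 and -0.01, with adjusted p of 0.637, 0.114 and 0.836.

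The lowest of this list were chosen after their values were seen. SETD1A, a histone H3 lysine methyltransferase, was at -1.38 ± 0.09 in HEK293T (14.2% and 23.5%, adjusted p = 5.2e-09) and -1.14 in K562, and KANSL1, a scaffold of an acetyltransferase complex, was at -1.27 ± 0.10 (adjusted p = 4.76e-08) and -1.12. In K562 25 of the list were tested, with 4 called higher and 17 lower and a median of -0.43 (14 and 3 as deposited). HCFC1 was at -0.62 ± 0.04 there, ASXL2, a partner of BAP1, at -0.51 ± 0.06, and HDAC1 at 0.19 ± 0.04.

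Known O-GlcNAc proteins gave 3 called higher and 10 lower of 19 tested in HEK293T, with a median of -0.16, against 16 and 0 as deposited. In K562 they gave 3 and 11 of 18, with a median of -0.28, against 16 and 1 as deposited. NUP153, a nucleoporin of the nuclear basket, was at -0.69 ± 0.05 in HEK293T (9.17% and 9.41%, adjusted p = 1.08e-08) and -0.53 ± 0.02 in K562. RANBP2, a nucleoporin of the cytoplasmic filaments, was at -0.54 ± 0.04 and -0.40 ± 0.04, and EWSR1, an RNA-binding protein also among the nearest genes to OGT, at -0.46 ± 0.05 and -0.37 ± 0.03. POLR2A, the largest subunit of RNA polymerase II, was at 0.14 ± 0.05 in HEK293T (adjusted p = 0.022) and at -0.25 ± 0.05 in K562 (adjusted p = 0.0014). CTNNB1, beta-catenin, was at 0.06 in HEK293T (adjusted p = 0.277) and at -0.34 ± 0.03 in K562 (adjusted p = 2.63e-05). Both were positive in K562 as deposited, at 0.47 and 0.37. NUP155 was at -0.21 ± 0.05 in HEK293T (adjusted p = 0.00294) and at 0.05 in K562 (adjusted p = 0.514).

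The ER comparisons were read the same way. Against NES, 12.9% of genes were called higher with ERM and 20.9% lower, and 0.0726% and 91.2% as deposited. The UDP-GlcNAc list gave 1 higher and 1 lower of 5 (0 and 5 as deposited), the partner list 2 and 2 of 19 (0 and 19), and the O-GlcNAc proteins 1 and 9 of 20 (0 and 20). Without the first ERM library the counts fell to 1 and 0, 0 and 2, and 0 and 5. Without the second ERM library the partner list also gave 0 and 2, and without the second NES library the UDP-GlcNAc list gave 1 and 0. Against NLS, 29.8% were called higher and 31.1% lower (40.5% and 22.5% as deposited), and the lists gave 2 and 3 of 5 (2 and 2 as deposited), 2 and 8 of 16 (3 and 7), and 1 and 11 of 18 (2 and 8). Without the first ERM library the UDP-GlcNAc list gave 2 and 0 there.

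In rRNA-depleted RNA limma called few genes of any kind, 0.989% higher and 3.7% lower (1.23% and 3.51% as deposited). It called 0 of the UDP-GlcNAc list, which also had 0 at an unadjusted p under 0.05. It called 1 of 21 partner genes, SETD1A, lower (2 higher and 3 lower unadjusted), and 0 of 17 O-GlcNAc proteins (1 higher and 0 lower unadjusted). These counts rested on the 2 NES libraries that stand apart: all genes called numbered 251, but 1714 without the first NES library and 1580 without the second, where the partner list gave 6 and 7 calls and the O-GlcNAc proteins 8 and 6. Without either NLS library 12 genes were called.

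For the difference between the lines, 18.4% of genes were called higher in K562 and 16.5% lower (29.2% and 8.68% as deposited). The UDP-GlcNAc list gave 0 calls in limma, also 0 at an unadjusted p under 0.05, and 1 as deposited. The partner list gave 1 higher and 4 lower of 20 (3 and 1 as deposited), and the O-GlcNAc proteins 4 and 7 of 18 (7 and 4 as deposited). The partner list fell to 2 or 3 calls without the second NES or the first NLS library of HEK293T or without either NES library of K562. The O-GlcNAc proteins fell to 7 calls without the first NES library of K562. The UDP-GlcNAc list gave 1 call without the first NLS library of either line.

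Single cells and genomic DNA also touch these genes. In 10 single HEK293T cells with the cytoplasmic enzyme, OGT had sites in 9 cells (0 to 117 sites, median 11.5) and OGA in 8 (0 to 91, median 27.5). The mean rate per cell ran from 1.46% to 69.6% for OGT and from 6.13% to 66.3% for OGA, far wider than the spread of the bulk libraries. These extremes rested on 5 and 31 OGT sites and on 36 and 7 OGA sites. Each cell was read over its own positions, unlike the 2 bulk libraries of a group, so the spreads are not alike. Over all genes the cell means ran from 20.9% to 39.2%. Of 197 OGT positions seen in the cells, 57 (28.9%) were NES sites and 93 NLS sites in bulk. Bulk poly(A) RNA of HEK293T held 177 NES and 555 NLS sites of OGT, and the 57 were 32.2% of its NES sites. In the cells, 6 OGT positions lay in cluster 5 and 33 were seen in at least 2 cells. Of 229 OGA positions, 66 (28.8%) were NES sites and 81 NLS sites in bulk, where OGA had 211 NES and 328 NLS sites. The 66 were 31.3% of its bulk NES sites. In the cells, 22 OGA positions lay in clusters 12 and 13, and 29 were seen in at least 2 cells. The labels name no separate cultures, so the cells are 1 sample.

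In K562 genomic DNA compared between the nuclear enzyme and control, 2 of 878631 sites fell within these genes. At X:71548736, 2 of 10 reads were changed with the enzyme and 2 of 16 in the control, and at 10:101804474, 6 of 6 and 21 of 21. Neither position was a called RNA site.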

How the data were processed

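Called sites came from the poly(A) and rRNA-depleted tables, in which the authors deposited the fraction of changed reads per site and library, an adjusted p-value per site, and no read count, so depth and counting error are unknown. Per the submitters' processing notes, cutadapt, STAR, Bowtie2 and SAMtools were used for the bulk RNA on hg38, with the rules for calling a site not given in the sources used here. Genomic DNA tables hold deposited counts of changed and total reads. The single-cell tables hold deposited fractions. The cells' protocol names SMART-Seq v4, and their titles name Smart-seq2. Rates of the GFP controls and 28 further value columns were not used here.

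Gene rates are means of site rates, in percent. Changes were fitted with limma 3.58.1 (R 4.3.3) on the log2 mean rate per library over sites called for both constructs, for genes with at least 5 such sites, with the variance allowed to follow the number of sites. P-values are two-sided, and the Benjamini-Hochberg adjustment covers every gene tested. Differences were centred on the median gene. The fit was tested on data simulated with independent libraries, so that test does not cover libraries that are technical repeats. OGT and OGA get no p, since the same tables chose them. Members and lists were chosen with earlier results of these data known. The text names at most 6 members of each list and comparison, those with the most shared sites, the 5 nearest genes to OGT and to OGA, and sites among the 5 highest of a table; other choices are marked. Tables were read with Python 3.11.15, pandas 2.3.3 and numpy 2.4.6.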

Additional observations from a re-analysis of the deposited data

Results flagged for a closer look

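In the single cells, 1 cell held 117 OGT sites where the next held 31, and another held 91 OGA sites where the next held 37. The gaps were 0.735 and 0.593 of the whole range over 10 cells. The cell with 117 OGT sites also had the most sites over all genes, 566457, while the cell with 91 OGA sites had 312090, within the range of the others. Chance marks about 1 in 20 groups this way, and 4 groups were looked at.

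Among the named list genes, 6 differed between K562 and HEK293T in their NES against NLS difference. The test was limma's interaction term with Benjamini-Hochberg adjustment, K562 minus HEK293T relative to the median gene. Over all 5184 genes tested it called 18.4% higher in K562 and 16.5% lower, so such calls were common and do not set these genes apart. CTNNB1 was at -0.52 ± 0.06 (adjusted p = 1.11e-05, 158 sites), POLR2A at -0.53 ± 0.07 (adjusted p = 2.89e-05, 110 sites), PPP1R12A at -0.31 ± 0.07 (adjusted p = 0.00426, 88 sites) and NUP98 at -0.28 ± 0.07 (adjusted p = 0.00557, 132 sites). HCFC1 was at 0.34 ± 0.11 (adjusted p = 0.0224, 56 sites) and NUP214 at 0.39 ± 0.09 (adjusted p = 0.00263, 47 sites). All 6 kept their sign as deposited, at -0.39, -0.40, -0.18, -0.15, 0.47 and 0.51 in that order. Delivery and line cannot be told apart.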

How the results depend on the processing

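The tables hold no read counts, so unread and unmodified adenosines cannot be told apart, and neither can a small rate and a shallow site. Fits that split exonic from intronic sites were not run, since no annotation was used. Site clusters, and leaving out those of mostly NLS-only sites, were chosen after the data were seen. Those clusters hold few of the shared sites, so leaving them out says little of a shared-site difference.

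As deposited, OGT and OGA were at -1.26 and -0.73 for NES against NLS in HEK293T, -2.31 and -1.46 for ERM against NLS, -0.87 and -0.92 for ERM against NES, -1.52 and -0.97 in K562, and -0.21 and -0.34 for the difference between lines. Calls as deposited for ERM against NES were 5 in the UDP-GlcNAc list, 19 in the partner list, 20 in the O-GlcNAc proteins and 6284 over all genes, and for the difference between lines 1 in the UDP-GlcNAc list. With the mean of log2 site rates, OGT was at -1.81 and OGA at -1.34 in HEK293T, OGT at -2.24 for ERM against NLS and -0.079 for ERM against NES, and the pair at -2.08 and -1.63 in K562; 2 partner genes were called in rRNA-depleted RNA. With the median of site rates, OGA was at -1.54 in HEK293T and -0.21 for ERM against NES, OGT was at -2.26 for ERM against NLS and reversed to 0.0022 for ERM against NES, the pair was at -2.18 and -1.88 in K562, and 1 partner gene was called for ERM against NES.

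With at least 10 sites, OGA was at -1.42 in HEK293T and -1.72 in K562. With no filter on sites it was at -1.34 and -1.63, OGT at -2.17 in K562, the UDP-GlcNAc list had 7 calls in HEK293T and the O-GlcNAc proteins 1 in rRNA-depleted RNA. Over sites shared by all 3 constructs, OGT was at -2.28 for NES against NLS and -0.15 for ERM against NES, and OGA at -0.20 for the latter. Without the variance trend, ERM against NES gave 1, 0 and 5 calls in the UDP-GlcNAc, partner and O-GlcNAc lists and 1501 over all genes.

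Leaving out 1 library at a time, OGA ranged from -1.43 to -1.36 in HEK293T, and OGT from -0.24 to -0.15 and OGA from -0.30 to -0.21 for ERM against NES. Calls for ERM against NES ranged from 1 to 2, 2 to 3 and 5 to 8 in the UDP-GlcNAc, partner and O-GlcNAc lists and from 1459 to 1854 over all genes. Calls in the UDP-GlcNAc list for ERM against NLS ranged from 2 to 5. In rRNA-depleted RNA the partner list ranged from 0 to 7, the O-GlcNAc proteins from 0 to 8 and all genes from 12 to 1714. For the difference between lines the 3 lists ranged from 0 to 1, 2 to 5 and 7 to 11. All other totals of calls, higher and lower together, stayed within 1.5 times under these alternatives. Their split into higher and lower did not. As deposited for NES against NLS in HEK293T, the partner list went from 4 higher and 11 lower to 13 and 2. The O-GlcNAc proteins went from 3 and 10 to 16 and 0, and all genes from 2218 and 2151 to 5243 and 412. With the replicate number as a block, 4301, 2593, 3584, 4917, 251 and 1819 genes were called for NES against NLS in HEK293T, ERM against NES, ERM against NLS, K562, rRNA-depleted RNA and the difference between lines, beside 4369, 2330, 3552, 4869, 251 and 1811 without it. Same-numbered libraries deviated together with correlations from -0.02 to 0.09, and the numbers were not taken as pairs.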
